A study of Mus musculus with 8 samples.

Results

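Of the 54532 genes in the deposited table, 9 encode transcription factors of the interferon regulatory factor (IRF) and signal transducer and activator of transcription (STAT) families that were chosen by name: *Irf1*, *Irf2*, *Irf3*, *Irf5*, *Irf7*, *Irf8*, *Irf9*, *Stat2* and *Stat3*. MICFs (cardiac fibroblasts from the hearts of adult C57BL/6 mice with myocardial infarction, MI) carried lentiviruses for MGT (*Mef2c*, *Gata4* and *Tbx5*), *Myocd*, *Sall4* and eGFP, all switched on by doxycycline (Dox), so every library holds cells with these factors. The cells were either injected into the left ventricle of C57BL/6 mice at the time of coronary artery ligation (*in vivo* samples) or kept in culture (*in vitro* samples), and eGFP+ cells were sorted by flow cytometry at 1 week (day 7) and 2 weeks (day 14). Each of the 4 groups has 2 libraries, giving 8 in all, and no source used here says which animals or wells they came from, so p-values measure only the spread between these samples. According to the methods, host mice received tacrolimus, methylprednisolone and mycophenolate mofetil every day, and reprogramming cultures were kept in a medium with the TGF-β receptor inhibitor SB431542 and the JAK inhibitor baricitinib. Effects of the heart, of these host drugs and of these culture inhibitors on the STAT and IRF genes therefore cannot be told apart.

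Type I interferons bind a receptor whose JAK kinases phosphorylate STAT proteins, and STAT2 then joins IRF9 and a partner STAT in the complex ISGF3, which binds interferon-stimulated response elements (ISREs). IRF3 and IRF7 act upstream of this loop, as factors that switch on interferon genes after viral or nucleic acid sensing, and IRF7 is itself an interferon-stimulated gene. IRF1 activates antigen presentation and other interferon-γ response genes through related sites, IRF2 competes for those sites, IRF5 and IRF8 are prominent in macrophages and other myeloid cells, and STAT3 carries signals from the IL-6 family of cytokines.

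Promoter sequences were examined first, because the ISRE and the interferon-γ-activated site (GAS, bound by STAT dimers) are the elements through which these factors act on each other. RefSeq windows from 250 bases before to 50 bases after a transcription start on GRCm38.p6 were found for all 9 genes, 12 windows in all. They were searched on both strands for the ISRE core GAAANNGAA, the GAS TTCNNNGAA and the TATA box TATAAAA. Of 32851 promoter windows of this length, 8.56% held the ISRE core, 8.30% the GAS and 5.48% the TATA box. The ISRE core was found in *Irf2* and *Stat2*, the GAS in *Irf1*, *Irf2* and *Irf8*, and the TATA box in *Irf7* and *Irf8*. The stretches around these matches are printed in the direction of transcription with the matches in capitals, since they show which of the 9 genes carry such a sequence close to the start. They are *Irf1* at chr11:53769894-53769962 (+ strand), *Irf2* at chr8:46739495-46739559 (+), *Irf8* at chr8:120736157-120736243 (+) and chr8:120736297-120736363 (+), *Stat2* at chr10:128270248-128270315 (+) and *Irf7* at chr7:141266417-141266483 (- strand).
Irf1 (GAS): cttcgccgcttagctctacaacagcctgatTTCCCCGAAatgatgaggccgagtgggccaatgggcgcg
Irf2 (ISRE core, then GAS): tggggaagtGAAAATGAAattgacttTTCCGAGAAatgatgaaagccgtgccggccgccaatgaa
Irf8 (GAS, then GAS): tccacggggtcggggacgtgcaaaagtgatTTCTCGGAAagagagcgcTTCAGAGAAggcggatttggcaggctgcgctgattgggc
Stat2 (ISRE core, opposite strand): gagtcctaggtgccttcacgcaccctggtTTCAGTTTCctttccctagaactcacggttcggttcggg
Irf8 (TATA box): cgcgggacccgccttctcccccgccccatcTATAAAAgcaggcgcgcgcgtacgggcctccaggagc
Irf7 (TATA box): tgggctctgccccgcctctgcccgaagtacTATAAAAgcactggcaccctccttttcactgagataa

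Counted from the transcription start, with the base before it at -1, the first base of the GAS lay at -90 in *Irf1*, at -224 in *Irf2* and at -171 and -153 in *Irf8*. The ISRE core began at -241 in *Irf2* and at -221 in *Stat2*, and the TATA box at -29 in *Irf7* and at -31 in *Irf8*. In the windows of *Irf3*, *Irf5*, *Irf9* and *Stat3* none of the 3 letter patterns was found, which says only that these letters are absent from these windows.

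**Figure D1:**
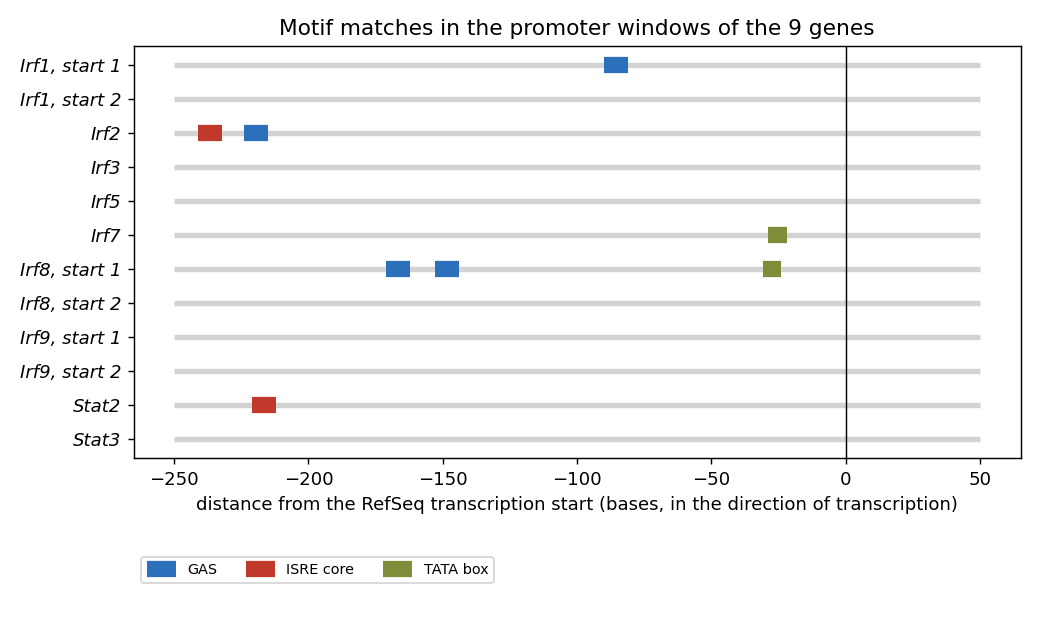
Positions of motif matches in the 12 RefSeq promoter windows of the 9 genes (grey bars), with the distance from the transcription start in bases on the x axis and colour marking the motif. The GAS matches lie in *Irf1*, *Irf2* and *Irf8*, the ISRE cores in *Irf2* and *Stat2*, and the TATA boxes in *Irf7* and *Irf8*.

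The values are FPKM (fragments scaled by gene length and by library size), and each library holds between 12304242 and 14546904 fragments on genes, with a median of 12919718. FPKM is a level per length and was used to compare levels between genes. Differences between groups are log2 fold changes of FPKM + 0.1 from limma, fitted over the 15708 genes that reached an FPKM of 0.5 in 2 libraries or more. A gene was called where the Benjamini-Hochberg adjusted p was under 0.01 and the fold change exceeded 1 on the log2 scale. All 9 IRF and STAT genes passed the filter on low values. A factor that evens out libraries is already part of the deposited FPKM, and without it the median of all tested genes moved to -0.34 at 1 week and -0.32 at 2 weeks, so the differences given here are relative to that scaling.

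The sorted cells were checked against markers. The summed FPKM of 12 fibroblast markers was 13174 to 14029 *in vivo* and 3504 to 3673 *in vitro* at 1 week, and 11026 to 12416 and 2443 to 2445 at 2 weeks, so fibroblast genes were abundant in every library. The matrix gene *Postn* led the markers that were higher *in vivo* (log2 fold change 3.46 and 3.56), and *S100a4* was lower (-2.51 and -3.12). Of the 12, 6 were called higher and 1 lower at 1 week, and 7 and 1 at 2 weeks. Matrix genes weighed most in the sums, with *Col1a1* at 4132 and 4709 *in vivo* and 852 and 862 *in vitro* at 1 week. *Pdgfra*, *Tcf21*, *Ddr2* and *Thy1*, named after their values were seen, were called at neither week (0.06, 0.32, -0.62 and -0.75 at 1 week). The sums for 18 macrophage markers were high too, at 3388 to 4004 *in vivo* and 5939 to 6766 *in vitro* at 1 week. At 2 weeks they were 2373 to 2879 and 5647 to 6909, with none of the 18 at 0 in either library of any group. The label of cardiac fibroblasts therefore does not cover all the RNA in these libraries. The paper itself reports, from staining, that isolated MICFs included macrophages and a few endothelial cells. The sums for 8 endothelial markers were 80.3 to 91.2 *in vivo* and 21.2 to 22.3 *in vitro* at 1 week and 73.5 to 80.5 and 43.1 to 51.5 at 2 weeks. Of these 8, 7 were called higher *in vivo* at 1 week (median 2.65, *Pecam1* at 2.96) and 4 at 2 weeks (median 1.07, *Tie1* at 1.63). *Irf7*, *Irf9* and *Stat2* were called higher too, and the part of the endothelial markers in those results was not tested. Beside the counts in this paragraph, 7.79% of all tested genes were called higher and 5.07% lower at 1 week. At 2 weeks these shares were 9.02% and 8.05%. For 8 dendritic cell markers the sums stayed between 4.79 and 8.13 in every group, with *Cd209a* at 0 *in vitro*. Of the 5 tested, 0 were called at 1 week. At 2 weeks *Cd209a* was called higher *in vivo* (3.56) and *Xcr1* lower (-2.43). *Cd209a* then had 30 and 12 fragments *in vivo* and 0 *in vitro*, and *Xcr1* had 5 and 2 *in vivo* and 47 and 51 *in vitro*. Each passed the filter on low values only through the side where it was higher. A call the other way was hardly open to it, so no result is read from its direction. For 12 lymphocyte markers the sums stayed between 0.786 and 3.61. *Cd3d* and *Cd3g* were at 0 *in vitro* at both weeks, and *Ms4a1*, *Ncr1* and *Klrb1c* were at 0 *in vivo* at 2 weeks. Of the 3 tested, 0 were called at 1 week and 1 at 2 weeks, *Cd4*, which was lower *in vivo* (-2.04). The sums for 10 cardiomyocyte markers, the genes of the intended fate, were 10.2 to 12.6 *in vivo* and 108 to 118 *in vitro* at 1 week. At 2 weeks they were 17.3 to 23.4 and 558 to 632. *Myh6*, a myosin heavy chain gene, was at 0.155 and 0.228 FPKM *in vivo* and 15.1 and 118 *in vitro* on average. Calls among the 9 tested markers went both ways, with 6 down *in vivo* against 1 up at 1 week and 7 against 2 at 2 weeks. Those up were *Pln* (2.51 and 3.97) and, at 2 weeks only, *Myl2* (2.39), both named after their values were seen. Both passed the filter on low values only through the *in vivo* libraries, and *Myh6* only through the *in vitro* libraries. In such bulk samples, fewer cells of a type and less RNA per cell cannot be told apart.

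At 1 week, *Irf7*, *Irf9* and *Stat2* were higher *in vivo* than *in vitro*, and none of the 9 genes was called lower. Calls as higher covered 7.79% of the 15708 tested genes at this week and calls as lower 5.07%. At 2 weeks the same 3 genes were higher, against 9.02% of all tested genes, while *Irf1* and *Irf8* were lower, against 8.05%. Without the scaling between libraries the balance of calls over all genes turned, to 906 higher and 1558 lower in place of 1224 and 796 at 1 week and to 1032 and 2087 in place of 1417 and 1265 at 2 weeks, while *Irf7*, *Irf9* and *Stat2* stayed called as higher. The median log2 fold change of the 9 genes was 0.50 at 1 week and 0.13 at 2 weeks, beside -0.01 and -0.00 over all tested genes.

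**Figure D2:**
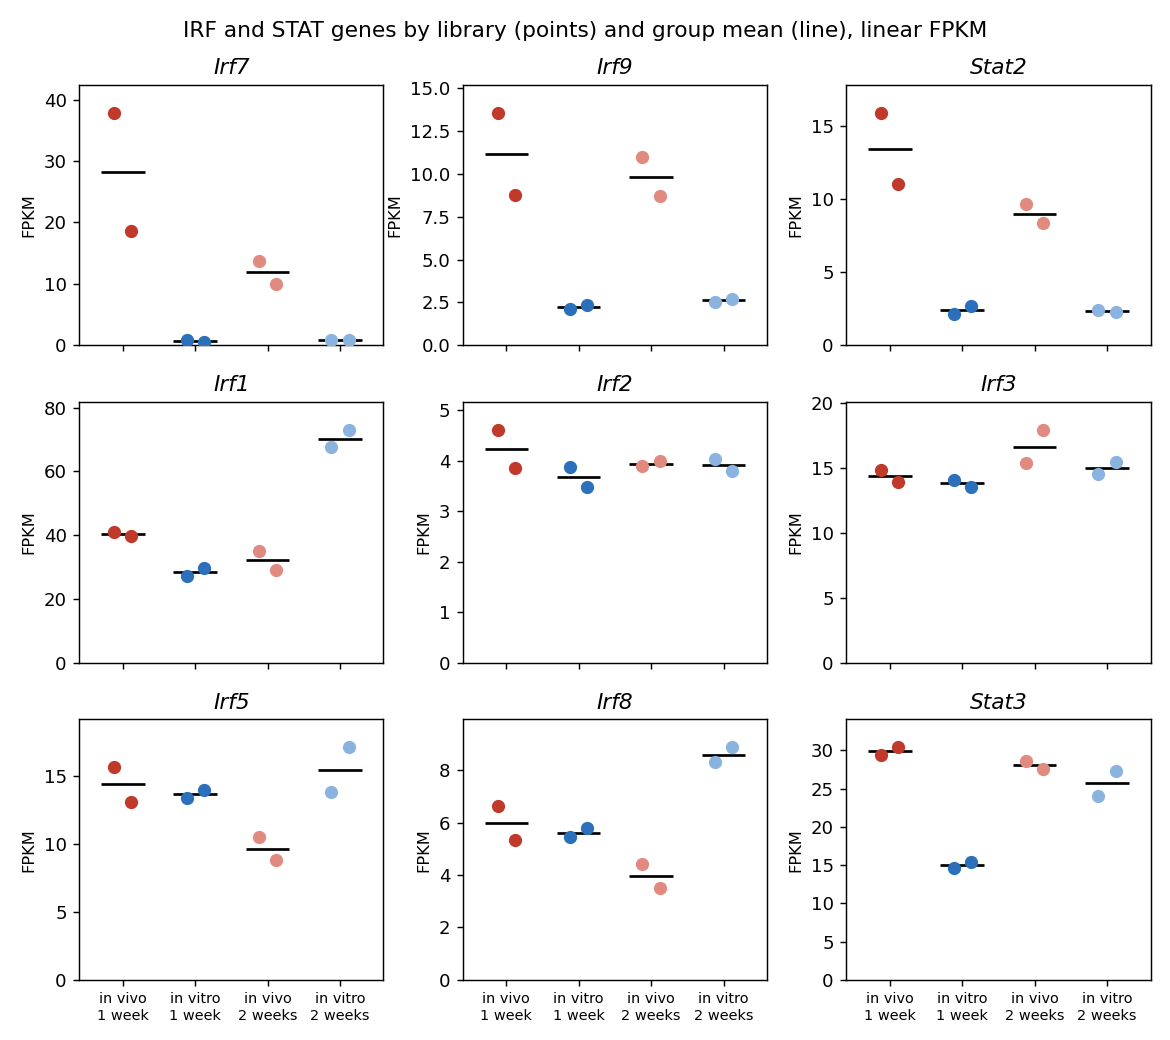
FPKM of the 9 genes in each library (points, linear axes starting at 0) with the mean of the 2 libraries in each group (lines). For *Irf7*, *Irf9* and *Stat2* both *in vivo* libraries lie above both *in vitro* libraries at each week, *Irf1* is highest *in vitro* at 2 weeks, and *Irf2* and *Irf3* stay within a narrow range.

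*Irf7* (chr7:141262706-141266481, - strand), the interferon-inducible amplifier of type I interferon production, differed most. Its FPKM was 37.8 and 18.5 *in vivo* and 0.791 and 0.496 *in vitro* at 1 week, and 13.7 and 10.05 *in vivo* and 0.862 and 0.857 *in vitro* at 2 weeks. The groups did not overlap at either week, the *in vitro* values rested on 28 to 46 fragments per library and the *in vivo* values on 419 to 1673. *Irf7* was 36.5-fold higher *in vivo* at 1 week (log2 fold change 5.19, SE 0.35, limma adjusted p = 5.2e-05) and 12.4-fold higher at 2 weeks (3.63, SE 0.35, adjusted p = 0.00020). Ordered by log2 fold change, it stood at percentile 99.8 of all tested genes at 1 week and at 98.8 at 2 weeks. Both *in vivo* libraries at 2 weeks lay below both at 1 week, but this change over time (log2 fold change -1.17, SE 0.35, adjusted p = 0.068) did not pass the threshold. The *in vivo* replicates at 1 week were the most unequal of any pair for this gene, with a mean of 28.2 ± 13.6 (SD, n = 2).

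The 2 subunits of ISGF3 that were examined moved side by side. For *Irf9* (chr14:55603571-55610030, + strand), the DNA-binding subunit, the FPKM was 13.6 and 8.74 *in vivo* and 2.11 and 2.35 *in vitro* at 1 week, and 11.0 and 8.69 against 2.51 and 2.72 at 2 weeks. *Irf9* was 4.72-fold higher *in vivo* at 1 week (log2 fold change 2.24, SE 0.21, adjusted p = 0.00023) and 3.64-fold higher at 2 weeks (1.86, SE 0.21, adjusted p = 0.00043). For *Stat2* (chr10:128270559-128292849, + strand), whose protein supplies the transactivation domain of the complex, the FPKM was 15.9 and 11.0 *in vivo* and 2.12 and 2.71 *in vitro* at 1 week, and 9.63 and 8.36 against 2.39 and 2.25 at 2 weeks. Neither gene overlapped between *in vivo* and *in vitro* samples at either week. *Stat2* was 5.33-fold higher *in vivo* at 1 week (log2 fold change 2.41, SE 0.19, adjusted p = 0.00011) and 3.75-fold higher at 2 weeks (1.91, SE 0.19, adjusted p = 0.00026). Its FPKM was 0.827 to 1.26 times that of *Irf9* in all 8 libraries, so the pair stayed near parity per length while both levels moved. Annotated exons of *Irf9* share 123 bases with *Rnf31* on the same strand, where reads cannot be assigned to either gene with certainty.

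*Irf3*, which is activated by phosphorylation of protein already present, contrasted with *Irf7*. Its FPKM (chr7:44997648-45002848, + strand) was 14.8 and 13.9 *in vivo* and 14.1 and 13.6 *in vitro* at 1 week, and 15.4 and 17.9 against 14.6 and 15.5 at 2 weeks. The *in vivo* and *in vitro* libraries overlapped each time, and the log2 fold changes of 0.05 (SE 0.09) and 0.14 (SE 0.09) did not pass the test. Per length, *Irf7* was at 1.33 to 2.55 times *Irf3* *in vivo* at 1 week, at 0.560 to 0.893 times *in vivo* at 2 weeks and at 0.0366 to 0.0591 times in the 4 *in vitro* libraries. The order of the 2 factors thus turned between the *in vivo* groups, and *Irf3* was far above *Irf7* in culture.

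*Irf1* (chr11:53770014-53778374, + strand) was the highest of the 9 genes per length in every group and the only one whose difference between *in vivo* and *in vitro* was called as differing between the weeks. Its FPKM was 41.1 and 39.6 *in vivo* against 27.1 and 29.8 *in vitro* at 1 week, but 35.0 and 29.0 *in vivo* against 67.7 and 73.0 *in vitro* at 2 weeks. The groups did not overlap at either week, and the side that was higher turned. At 1 week the log2 fold change of 0.50 (SE 0.10, adjusted p = 0.0066) stayed under the fold minimum, and it was 0.16 (adjusted p = 0.16) without the scaling between libraries. At 2 weeks *Irf1* was 2.20-fold lower *in vivo* (log2 fold change -1.14, SE 0.10, adjusted p = 0.00013). The 2 differences differed by -1.64 (SE 0.14, adjusted p = 0.0034), beside 1.15% of tested genes called lower and 0.573% called higher in this comparison. That call was lost when any 1 of the 4 libraries at 1 week or of the 2 *in vitro* libraries at 2 weeks was left out, with the adjusted p then between 0.0146 and 0.0254 and the difference between -1.71 and -1.57.

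Most of this difference lay in the cultures. From 1 to 2 weeks *in vitro*, *Irf1* rose 2.47-fold (log2 fold change 1.30, SE 0.10, adjusted p = 0.00051) and was the only one of the 9 genes called, against 2.76% of all tested genes called higher and 1.05% called lower. *In vivo* it was at -0.34 (SE 0.10, adjusted p = 0.064) over the same time. *Irf1* made up 48.2% to 49.0% of the summed FPKM of the 9 genes *in vitro* at 2 weeks, and 22.9% to 34.0% in the other 6 libraries. Between 1 and 2 weeks *in vivo* none of the 9 genes was called by limma, against 1.23% of all tested genes called higher and 0.949% called lower. At an unadjusted p under 0.05 there were 5 such genes, and limma voom on recovered fragments called 0.

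*Irf2* (chr8:46739732-46847458, + strand), the competitor of *Irf1* at its sites, stayed within a narrow range. Its FPKM was 4.61 and 3.86 *in vivo* and 3.87 and 3.48 *in vitro* at 1 week, and 3.89 and 3.99 against 4.03 and 3.79 at 2 weeks. The *in vivo* and *in vitro* groups overlapped at each week, as did the 2 weeks within each. The log2 fold changes *in vivo* over *in vitro* of 0.20 and 0.01 (SE 0.12 each) did not pass the test. The ratio of *Irf1* to *Irf2* per length was 16.8 and 19.3 *in vitro* at 2 weeks and 7.01 to 10.3 in the other 6 libraries.

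*Stat3* (chr11:100885098-100939540, - strand) came second per length in every group. Its FPKM was 29.4 and 30.4 *in vivo* against 14.6 and 15.4 *in vitro* at 1 week, and 28.6 and 27.5 against 24.0 and 27.3 at 2 weeks. The cultures at 1 week were thus the low group, and the *in vivo* values were alike at both weeks. At 1 week the 1.99-fold difference (log2 fold change 0.99, SE 0.08, adjusted p = 9.4e-05) lay just under the fold minimum, and at 2 weeks the log2 fold change was 0.13 (SE 0.08, adjusted p = 0.20). The change over time *in vitro* was 0.77 (SE 0.08, adjusted p = 0.0012) and the difference between the weeks -0.86 (SE 0.11, adjusted p = 0.0066), both past the adjusted p but under the fold minimum. Leaving out 1 library took the difference at 1 week past the fold minimum in 2 cases, to 1.03 without *in vitro* replicate 2 and to 1.01 without *in vivo* replicate 1. The exons of *Stat3* share 72 bases with a gene on the opposite strand, as do those of *Irf5* (411 of 2905 bases, with *Tnpo3*), *Irf1* (135, with *Gm17334*), *Irf3* (88, with *Bcl2l12*) and *Irf7* (45, with *Phrf1*), and whether the counting used strand is not given in the sources used here.

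**Figure D3:**
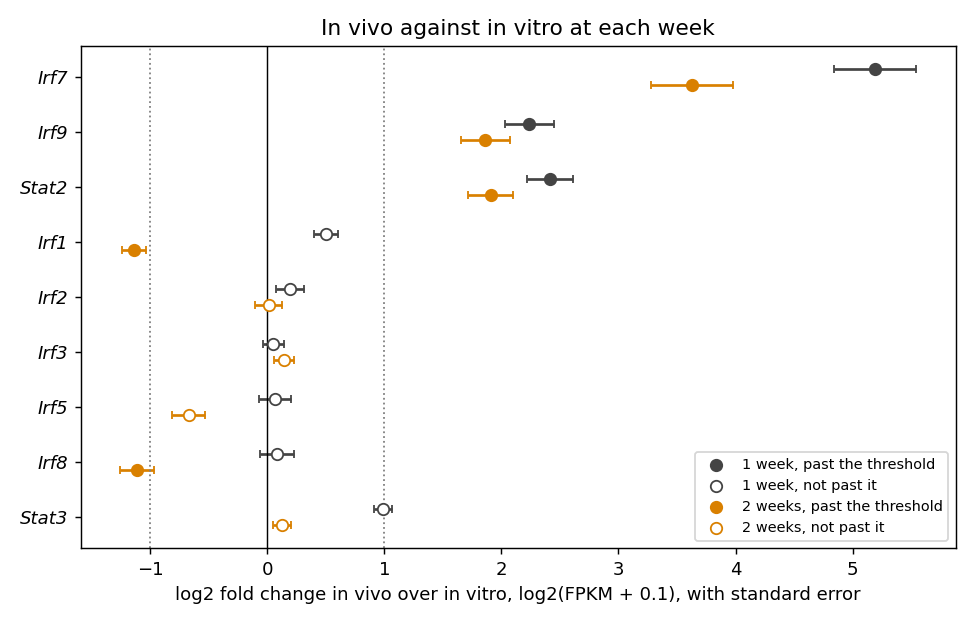
Log2 fold change *in vivo* over *in vitro* at 1 week (grey) and 2 weeks (orange) for the 9 genes, with standard errors from limma, where filled points passed the threshold and dotted lines mark the fold minimum. *Irf7*, *Irf9* and *Stat2* lie above it at both weeks, *Irf1* and *Irf8* lie below it at 2 weeks only, and *Stat3* at 1 week lies at 0.99.

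*Irf8* (chr8:120736358-120756694, + strand), a lineage factor of macrophages and dendritic cells, had an FPKM of 6.65 and 5.35 *in vivo* and 5.45 and 5.80 *in vitro* at 1 week. These overlapped, with a log2 fold change of 0.08 (SE 0.15). At 2 weeks it was 4.42 and 3.49 *in vivo* against 8.31 and 8.88 *in vitro*, without overlap, and *Irf8* was 2.16-fold lower *in vivo* (log2 fold change -1.11, SE 0.15, adjusted p = 0.00083). The call was lost without *in vivo* replicate 2 of 2 weeks, at -0.94. *Irf5* (chr6:29526625-29541871, + strand), a mediator of inflammatory cytokine expression in macrophages, was at 15.7 and 13.1 *in vivo* and 13.4 and 13.9 *in vitro* at 1 week, and at 10.5 and 8.79 against 13.8 and 17.1 at 2 weeks. Its log2 fold changes were 0.07 (SE 0.14) at 1 week and -0.67 (SE 0.14, adjusted p = 0.0067) at 2 weeks, the latter under the fold minimum. *Irf8* was at 0.397 to 0.424 times *Irf5* per length in 6 libraries and at 0.602 and 0.520 times *in vitro* at 2 weeks.

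Of the 18 macrophage markers, 10 were called lower *in vivo* at 2 weeks, led by *Cd68* at -1.74, and 1 higher (*Cx3cr1*, log2 fold change 1.37), with a median of -1.05. At 1 week, 3 were called higher, led by the Fc receptor *Fcgr1* at 2.61, and 1 lower, the lysozyme gene *Lyz2* at -1.45, with a median of -0.37. Over all tested genes, 8.05% were called lower and 9.02% higher at 2 weeks, and 5.07% lower and 7.79% higher at 1 week. *Spi1*, which encodes PU.1, a partner of IRF8 in myeloid cells, was at -0.27 (adjusted p = 0.21) at 1 week and at -0.999 (adjusted p = 0.0018) at 2 weeks. The part of these markers in the *Irf5* and *Irf8* values was not tested. Among the 7 cofactors of IRF proteins, *Spi1* included, limma called 0 at either week, with 2 at an unadjusted p under 0.05 at 1 week and 5 at 2 weeks and with 0 and 1 called by voom. At 1 week the lower *in vivo* sum of macrophage markers rested on *Lyz2*, at 1453 and 1331 FPKM *in vivo* and 3574 and 4014 *in vitro*. The other 17 markers summed to 2551 and 2057 *in vivo* and to 2365 and 2752 *in vitro*, which overlap. At 2 weeks they summed to 1677 and 1398 against 2725 and 3198, without overlap.

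**Figure D4:**
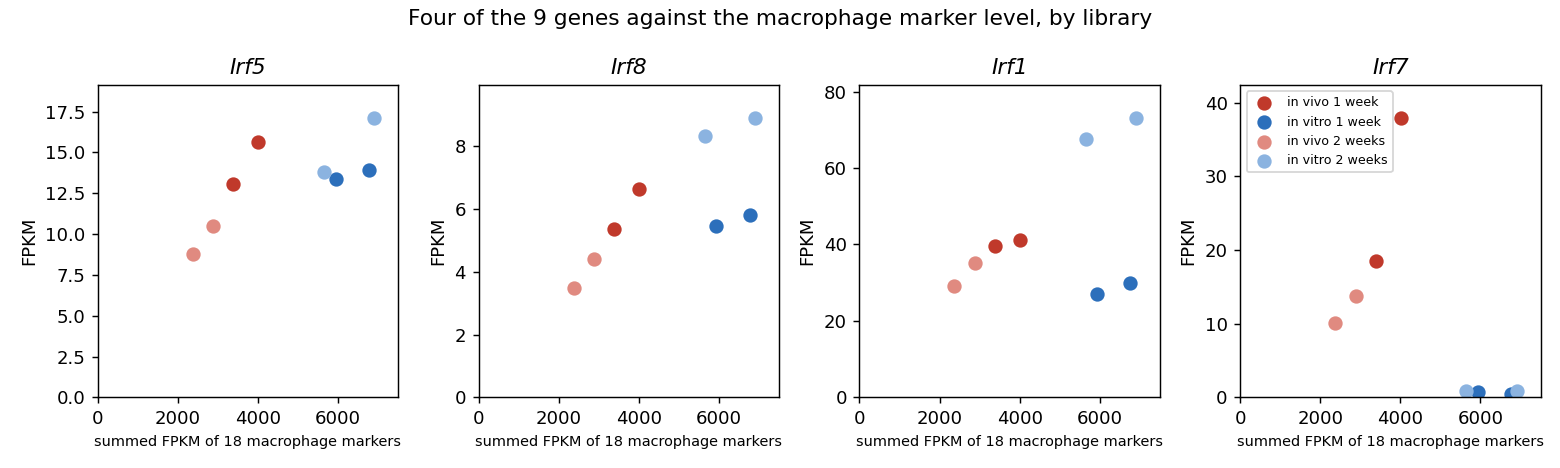
FPKM of *Irf5*, *Irf8*, *Irf1* and *Irf7* (y axes) against the summed FPKM of 18 macrophage markers (x axes) in the 8 libraries, coloured by group. The 4 *in vivo* libraries have marker sums of 2373 to 4004 and the 4 *in vitro* libraries 5647 to 6909, and *Irf7* is under 1 FPKM in each *in vitro* library.

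In order of level, *Irf1* and *Stat3* came first and second in all 4 groups, although *Stat3* and *Irf7* overlapped *in vivo* at 1 week. *Irf7* ranked 3 *in vivo* at 1 week, 4 at 2 weeks and last of 9 *in vitro* at both weeks. *In vivo* at 1 week, *Irf3*, *Irf5*, *Stat2* and *Irf9* followed in that order, each overlapping the next, and *Irf8* and *Irf2* were lowest. *In vivo* at 2 weeks *Irf7*, *Irf9*, *Irf5* and *Stat2* overlapped in the same way. *In vitro*, *Irf3* and *Irf5* overlapped each other at ranks 3 and 4, *Irf8* and *Irf2* came next without overlap, and *Stat2* and *Irf9* stood just above *Irf7*, overlapping each other at 1 week only.

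Genes with the most similar profiles were sought among the 7109 genes that code for protein and average 5 FPKM or more, by the root mean square difference of centred log2 values over the 8 libraries. These are descriptions over libraries that share 4 groups. For *Irf7* they were *Ifit1*, *Iigp1* and *H2-Q6*, at 0.37 to 0.42 for a gene whose own log2 range was 5.99. *Irf9* was closest to *H2-Q4*, *Ifi203* and *Igtp* at 0.15 to 0.17, and *Stat2* to *Ifi203*, *Igtp* and *Ifit3* at 0.10 to 0.16. *Stat2* ranked 4 in the order for *Irf9*, and *Irf9* ranked 5 in that for *Stat2*. *Irf5* was closest to *Grn*, *Pf4* and the complement gene *C1qa* at 0.08, and *Irf8* to the heme oxygenase gene *Hmox1*, the Fc receptor *Fcgr3* and *Pld4* at 0.10 to 0.12. *Irf8* ranked 236 in the order for *Irf5* and *Irf5* ranked 52 in that for *Irf8*. For *Irf1* they were *Phlda1*, *Adamts4* and *Zswim4* at 0.13 to 0.14, and for *Stat3* *Dnajb4*, *Foxs1* and *Ormdl3* at 0.08 to 0.11. *Irf2* was closest to *Plgrkt*, *Sh3bp4* and *Stoml2* and *Irf3* to *Arfrp1*, *Fxr2* and *Jkamp*, at 0.03 to 0.06, which are genes that hardly varied either.

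Genes that act upstream of these factors were described as lists. Of 15 sensors and kinases that lead to IRF3 and IRF7, 2 were called higher and 1 lower *in vivo* at 1 week, with a median log2 fold change of 0.29, and 1 higher and 1 lower at 2 weeks, with a median of -0.10. Over all tested genes, 7.79% were called higher and 5.07% lower at 1 week, and 9.02% and 8.05% at 2 weeks. The counts for this list lie near those shares, and no result about the list is read from them. *Tmem173*, which encodes the DNA-sensing adaptor STING, was called higher at 1 week at 1.18. *Tlr7*, an endosomal RNA sensor, was called lower at both weeks at -1.01 and -2.33. The other calls, named after their values were seen, were *Ifih1* at 1.08 at 1 week and *Tlr3* at 1.15 at 2 weeks, both RNA sensors. *Ifnb1*, the gene of interferon-β, was under the filter and was not tested. Its FPKM was 0.456 and 3.58 *in vivo* at 1 week, from 4 and 35 fragments, and at most 0.241 in the other 6 libraries, so 1 library held most of its fragments.

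Of 16 cytokines, receptors and kinases upstream of the STATs, 14 were tested, and 2 were called higher and none lower at each week. These counts too lie near the shares called higher over all tested genes (7.79% at 1 week and 9.02% at 2 weeks), and no result about the list is read from them. *Osmr*, the oncostatin M receptor, was higher at 1.96 and 1.58. The other calls, named after their values were seen, were the cytokine genes *Lif* at 1.05 at 1 week and *Il11* at 2.98 at 2 weeks. *Il11* was low, at 2.42 and 1.35 FPKM *in vivo* and 0.180 and 0.110 *in vitro* at 2 weeks, the latter from 5 and 3 fragments. It passed the filter only through the *in vivo* libraries, and its *in vitro* values lie close to the 0.1 added before the log. *Lif* was also called lower in the difference between weeks, at -1.69, and lower at 2 weeks than at 1 week *in vivo*, at -1.14. The interferon receptor genes *Ifnar1* and *Ifnar2* were measured at 15.7 to 24.7 FPKM in every library and the kinase gene *Jak1* at 37.5 to 43.1 FPKM. None of them was called. Past the adjusted p of limma but under the fold minimum were *Ifnar1* at 1 week (0.30, adjusted p = 0.0085) and *Ifnar2* at 2 weeks (-0.51, adjusted p = 0.0016). The same held for the rise of *Ifnar2* *in vitro* from 1 to 2 weeks (0.50, limma adjusted p = 0.0058).

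Target genes were described by 3 lists drawn from general knowledge but chosen with earlier results of these data known. The paper had already reported *Mx1*, *Ifit1*, *Ifit3*, *Usp18*, *Isg15* and *Oas2* as higher *in vivo* in these samples. The first list, which holds these genes, is therefore no independent evidence. For comparison with each list, 7.79% of all tested genes were called higher at 1 week and 9.02% at 2 weeks. Of 26 genes known as targets of STAT2 and IRF9, 21 were called higher *in vivo* at 1 week and 18 at 2 weeks and none lower, with median log2 fold changes of 3.38 and 2.10. Several of the 26 genes passed the filter on low values only through the *in vivo* libraries. Examples are *Oas2*, *Mx1* and *Usp18*, at most 0.0146, 0.0573 and 0.288 FPKM *in vitro*. A call as lower was hardly open to such genes, so for them the absence of such calls says nothing. *Isg15*, a ubiquitin-like modifier, was at 82.4 and 53.6 FPKM *in vivo* and 7.13 and 8.86 *in vitro* at 1 week. *Oas2*, which makes the activator of RNase L, was at 13.6 and 6.24 *in vivo* against 0.0146 and 0, the latter from 1 and 0 fragments. *Usp18*, an inhibitor of interferon receptor signalling, was at 6.13 and 4.35 against 0.130 and 0.184 at 2 weeks. Between the weeks limma called 0 of the 26 as different, with 9 at an unadjusted p under 0.05 and 0 called by voom.

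Of 25 genes known as targets of IRF1, 16 were called higher *in vivo* at 1 week and 10 at 2 weeks and none lower, with medians of 1.44 and 0.92. *Cxcl9* and *Ciita* passed the filter only through the *in vivo* libraries (at most 0.0244 and 0.152 FPKM *in vitro*). A call as lower was hardly open to these genes. Many of the 25 genes, such as the GTPase gene *Iigp1* at 4.11 and 3.96, also respond to other interferon-activated factors. They stood on the other side from *Irf1* itself at 2 weeks, when 24 of the 25 had a log2 fold change above 0 while *Irf1* was at -1.14. From 1 to 2 weeks *in vitro*, where *Irf1* rose, limma called 0 of the 25, with 8 at an unadjusted p under 0.05 and 1 called by voom, and their median was 0.15.

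Of 13 genes known as targets of STAT3, 4 were called higher *in vivo* at 1 week and 3 at 2 weeks and none lower, with medians of 0.61 and 0.05. The immediate early gene *Fos*, which many pathways induce, led at 1.98 and 3.04, and *Osmr* was called at both weeks. *Timp1*, an inhibitor of matrix proteases, was at 1.42 and 2.83, and *Il4ra*, called at 1 week at 1.29, completes the calls, both named after their values were seen. *Socs3*, the feedback inhibitor of IL-6 signalling, was at 0.20 (adjusted p = 0.066) and at 0.91 (adjusted p = 8.0e-05), under the fold minimum. In the difference between weeks, *Timp1* was called higher and *Bcl3*, also named after its value was seen, and *Il4ra* lower.

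The promoter windows of the target lists were searched with the same letters. The ISRE core was in 9 of the 18 genes with a window among the targets of STAT2 and IRF9, in 12 of 20 among those of IRF1 and in 0 of 12 among those of STAT3, beside 9.76% of 27025 genes. The GAS was in 5 of 18, 5 of 20 and 2 of 12, beside 9.55% of genes. Windows were found for 18 of 26, 20 of 25 and 12 of 13 listed genes. The lists hold genes already known as targets of these factors, so their shares of motifs are no separate evidence.

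**Figure D5:**
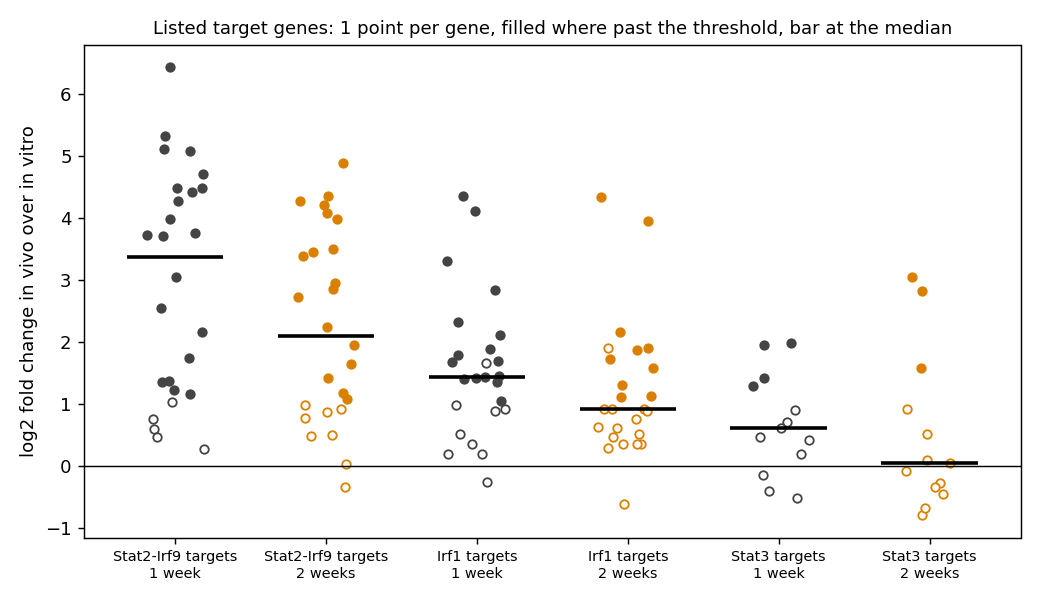
Log2 fold change *in vivo* over *in vitro* (y axis) for the listed targets of STAT2 and IRF9 (26 genes), IRF1 (25) and STAT3 (13) at 1 week (grey) and 2 weeks (orange), with 1 point per gene, filled where past the threshold, and a bar at the median. The medians are 3.38 and 2.10, 1.44 and 0.92, and 0.61 and 0.05.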

How the data were processed

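The authors' sequencing provider, Novogene, prepared mRNA libraries, sequenced and mapped them, and the authors deposited FPKM for each gene and library. The submitters' processing notes list CASAVA, HISAT2 2.0.5 and mm10, and the counting tool and its strand setting are not given in the sources used here. In each library 99.7% or more of the values above 0 were whole multiples of 1 fragment (tolerance 0.01), from which fragments were recovered.

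log2(FPKM + 0.1) was compared by limma 3.58.1 in R 4.3.3 with 4 groups, moderated variances and an intensity trend, after testing on simulated data. The authors used DESeq2, which needs counts. Comparisons were *in vivo* against *in vitro* at each week, the difference between these, and 2 weeks against 1 week within each. Gene positions matched GENCODE vM21 (GRCm38). Promoters came from RefSeq. Tables and plots were made in Python 3.11.15 with pandas 2.3.3, numpy 2.4.6 and matplotlib 3.10.9.

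The genes and lists were chosen with earlier results of these data known. Named genes are the 9 factors, the 3 genes most like each, and from each list the called gene with the largest rise and fall at each week, where the higher group averaged 5 FPKM or more. *Isg15*, *Spi1*, *Socs3*, *Ifnb1*, the receptors and *Jak1* were named in addition for their known roles. Other genes of the lists were named after their values were seen. Alternatives were other pseudocounts, filters, scalings, gene sets and thresholds, no trend, voom, a replicate block, fewer libraries and each library left out.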

Additional observations from a re-analysis of the deposited data

Results flagged for a closer look

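*Irf1* was flagged because its contrast of *in vivo* with *in vitro* libraries was not the same at the 2 weeks. The test of that difference itself gave -1.64 on the log2 scale (SE 0.14, adjusted p = 0.0034 by limma), with both *in vivo* libraries above both *in vitro* libraries at 1 week and below them at 2 weeks. That call, which is the value that led to the flag and no separate evidence, was lost without a variance trend, with the replicate block and when any 1 of 6 of the 8 libraries was left out (adjusted p 0.0146 to 0.0254). Groups of 2 libraries were not examined for outlying samples.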

How the results depend on the processing

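Of 846 values of single IRF and STAT genes under 19 alternatives per comparison (18 for the difference between weeks), 829 kept their side of the threshold, 12 lost a call, 5 gained one and 0 called values reversed. *Irf7*, *Irf9* and *Stat2* kept their calls as higher *in vivo* at both weeks under every alternative run. With an adjusted p under 0.05 and no fold minimum, 5 of the 9 genes were called at 1 week (*Irf1* and *Stat3* in addition), 3 in the difference between weeks and 3 over time *in vitro* (*Irf1*, *Irf8* and *Stat3*, named for both), and 2 over time *in vivo* (*Irf5* and *Irf8*), against 42.0%, 9.9%, 25.1% and 15.8% of all tested genes. In the difference between weeks, where *Irf1* was the 1 call, voom and a fit to protein-coding genes only called 2 with *Irf8*. A fit with no intensity trend called 0 (*Irf1* adjusted p = 0.0141, with 5 genes at an unadjusted p under 0.05), and leaving out each library in turn gave 0 to 1. Over time *in vitro*, a fit to the 4 libraries of the comparison called 0 (*Irf1* adjusted p = 0.0128, with 3 at an unadjusted p under 0.05). The call of *Irf8* at 2 weeks was lost with a pseudocount of 1 (-0.96) and with the 4 libraries only (adjusted p = 0.0115), and *Irf5* was called at 2 weeks (-1.001) without the scaling between libraries. Except for leaving out libraries or using fewer, the cause was not tested.

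The replicate numbers do not pair the samples by any source used here, and deviations of same-numbered replicates correlated at -0.048 to -0.011 over 15708 genes. With the number as a replicate block, 0 of the 9 genes were called in the difference between weeks (*Irf1* adjusted p = 0.0109, with 5 at an unadjusted p under 0.05) and 27 of all genes in place of 271.

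Counts over all genes moved by over 1.5 times as follows. With an adjusted p under 0.05 alone, 6605 in place of 2020 genes were called at 1 week, 7825 in place of 2682 at 2 weeks, 1558 in place of 271 in the difference between weeks, 2476 in place of 342 over time *in vivo* and 3942 in place of 599 over time *in vitro*. For the difference between weeks voom gave 473, protein-coding genes only 463, no filter 72 and no trend 71. Without the scaling between libraries, 1558 genes in place of 796 were called lower *in vivo* at 1 week, and 2087 in place of 1265 at 2 weeks. With 4 libraries only, limma called 0 over time *in vivo* (4198 at an unadjusted p under 0.05) and 0 *in vitro* (5992). Leaving out 1 library gave 2 to 86 in the difference between weeks, 11 to 221 over time *in vivo* and, for an *in vitro* library, 198 to 235 over time *in vitro*. With 2 libraries per group the spread is pooled over groups, and a lone library left by such a fit is assumed to vary like the others.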
